A study of Homo sapiens with 6 samples.

Results

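The libraries described here are the pair numbered 3 among 6 RNA sequencing libraries made from the human myeloid line U937, an established line that the labels give as acute myeloid leukemia and that came from a histiocytic lymphoma. The pair consists of B2 replicate 3 and DMSO replicate 3, and it is set against the other 4 libraries, B2 replicates 1 and 2 and DMSO replicates 1 and 2. All 6 came from wild-type cells held in RPMI-1640 without serum for 36 h. The B2 libraries received 1 µM of a compound known only as B2, and the DMSO libraries received the vehicle. The study compared B2 with DMSO, whereas the split by replicate number comes from the data: the pair was chosen by its measured levels of SIGLEC1, CD14, C1QC, VSIG4 and MMP9, which stood far above those of the rest. What a number stands for is not in the labels, nor whether libraries of a group were separate cultures. Differences between number 3 and the rest are therefore given as a description with standard errors (SE) and with no p-value.

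U937 cells are arrested promonocytes, which keep dividing and hold granule enzymes of early myeloid cells. Monocytes that mature into macrophages leave the cell cycle and gain receptors for antibodies, complement and sialylated ligands, together with lysosomal and matrix-degrading enzymes. Interferons, which cells release on sensing foreign nucleic acid, act through receptors, JAK kinases, STAT proteins and interferon regulatory factors. The resulting complex binds a short promoter motif, the interferon-stimulated response element (ISRE), and switches on antiviral genes. In bulk RNA a larger share of cells of a kind and more RNA per cell cannot be told apart.

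Library totals ran from 61150740 to 78431054 counts, and 18394 genes passed the filter on low counts. Levels are counts scaled to library size (CPM), with TMM factors of 0.861 to 1.07. CPM is not corrected for gene length, so levels are compared between libraries and not between genes. A limit of 3 counts corresponds to 0.0386 to 0.0538 CPM, depending on the library. Mitochondrially encoded transcripts held 6.44% to 10.3% of the counts. Number 3 stood apart on principal component 2 (31.2% of the variance), at -66.2 for B2 and -56.1 for DMSO against -7.85 to 101 in the others. On component 1 (35.7%) it did not: DMSO replicate 1, at 65.3, lay beside B2 replicate 3 at 48.0 and DMSO replicate 3 at 55.7. DMSO replicates 1 and 2 themselves differed by at least 2-fold at 7643 genes (41.6%), with a Pearson correlation of 0.937 across genes, and each leaned on GC content. The deviation of a library from the gene mean correlated with GC content at 0.444 in DMSO replicate 1 and at -0.523 in DMSO replicate 2 (Spearman, across genes). The same correlation was 0.0396 in B2 replicate 3 and 0.0807 in DMSO replicate 3, and that of the number 3 difference itself was 0.0976. The part of GC content in the results below was not tested beyond an alternative with the GC and length trend removed, which counted 481 genes as higher and 145 as lower.

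**Figure D1:**
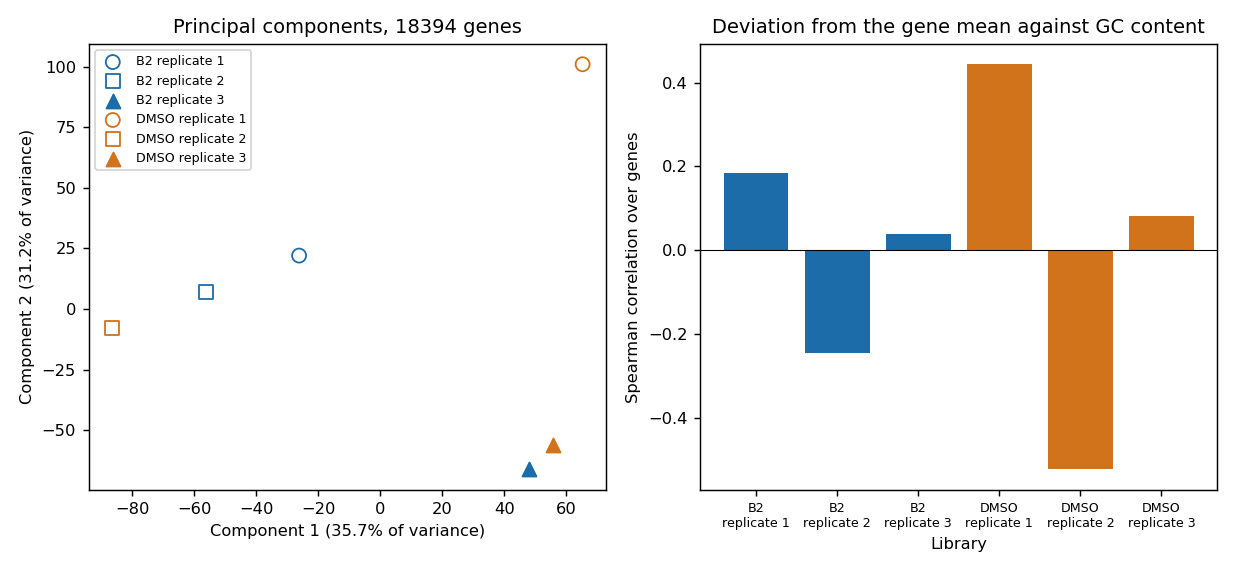
Left, the 6 libraries on the first 2 principal components of log2 CPM over 18394 genes. Right, Spearman correlation across genes between a library's deviation from the gene mean and GC content; the libraries numbered 3 sit at 0.0396 and 0.0807, between the extremes of DMSO replicates 1 and 2.

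A gene is called higher here where both libraries numbered 3 were at least 2-fold above the highest of the other 4, and lower where both were at least 2-fold below the lowest. By this rule 488 genes (2.65%) were higher and 123 (0.669%) lower. Counted without a minimum fold, 2276 genes (12.4%) lay above all other libraries in both and 2173 (11.8%) below. These shares are the background for every list count below. Of the higher genes 213 cleared 4-fold, 102 cleared 8-fold and 47 cleared 16-fold, whereas of the lower genes 21 cleared 4-fold and 4 cleared 8-fold. The higher genes together held 5.0% of the counts in B2 replicate 3 and 5.28% in DMSO replicate 3, against 1.02% to 1.38% in the other 4. Protein-coding genes made up 391 of the 488 higher but 54 of the 123 lower genes, and 83 of the lower genes averaged under 1 CPM in the other 4 libraries. Among 5505 protein-coding genes with a mean of at least 1 CPM and no exon overlap with another gene, 172 (3.12%) were higher and 10 (0.182%) lower. Just inside the 2-fold limit lay MEFV and STAT2, whose smallest log2 gaps were 1.01 and 1.02, and just outside lay MT2A at 0.999. GAL was just inside on the lower side at -1.03, and PTPRU just outside at -0.993.

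The B2 arm and the DMSO arm share no library. Across genes the number 3 differences of the arms correlated at 0.478 (Pearson) and 0.453 (Spearman), as a description over genes that share depth and base composition. B2 replicate 3 stood at least 2-fold above both of its arm mates at 1075 genes and DMSO replicate 3 at 1026, and 555 genes met this in both arms. On the lower side the counts were 1161, 660 and 180. Of the 611 higher or lower genes, which the rule required to lie on the same side in both, 41 differed by 2-fold between B2 replicate 3 and DMSO replicate 3, and of all genes 2195 (11.9%) did. Both counts depend on which other libraries are set against the pair. Without DMSO replicate 1 the rule counted 647 higher and 321 lower genes, without DMSO replicate 2 it counted 586 and 136, without B2 replicate 2 it counted 536 and 128, without both libraries numbered 1 it counted 910 and 655, and without both numbered 2 it counted 741 and 184.

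**Figure D2:**
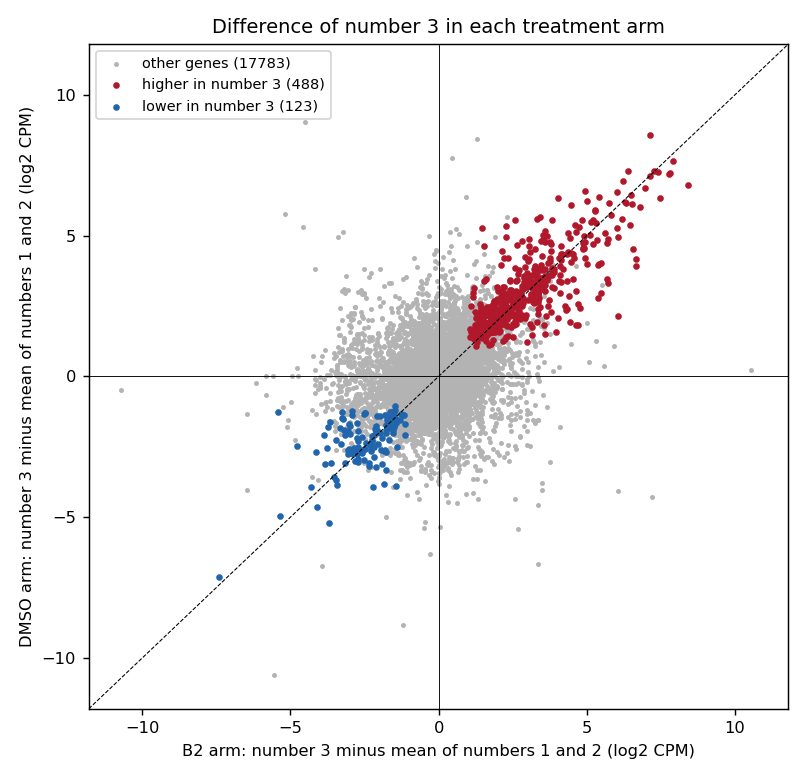
Each point is a gene, placed by the log2 CPM of number 3 minus the mean of numbers 1 and 2 in the B2 arm (x) and the DMSO arm (y). The 488 higher genes (red) and 123 lower genes (blue) lie along the diagonal because the rule asks for both arms; most of the other 17783 genes sit near 0.

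Genes of the macrophage surface were among the higher genes. The 5 marker genes that chose the libraries are described first, and support nothing. CD14, the co-receptor for bacterial lipopolysaccharide (chr5:140631728-140633701 in GRCh38, as are all gene positions here), stood at 120.5 and 109.7 CPM in number 3 and at 0.772, 0.615, 1.29 and 0.36 CPM in the rest (log2 difference 7.26, SE 0.519). Here and below the pair of values is B2 then DMSO, and the 4 values are B2 replicates 1 and 2 and then DMSO replicates 1 and 2. SIGLEC1, the sialoadhesin of tissue macrophages, was at 478 and 519.8 CPM in number 3 against 2.79 to 3.78 CPM in the others. VSIG4, a complement receptor of resident macrophages, was at 222 and 260.5 CPM in number 3 against 1.59 to 7.32 CPM in the others, with the highest of the others in DMSO replicate 1. MMP9, a gelatinase, was at 271 and 285 CPM in number 3 against 0.867 to 3.03 CPM in the others, although its exons overlap another gene and its counts may be shared. In none of the 5 marker genes did the pair overlap the other 4. Exon overlap is not particular to MMP9. It holds for 38.7% of the higher genes and 48.2% of all genes kept, with CD163, MMP1 and SLAMF8 below among them.

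Of 23 monocyte and macrophage surface genes measured, 14 were higher and none lower, against 2.65% and 0.669% of all genes, and the median log2 difference was 2.42 against -0.083 over all genes. FCGR3A, the low-affinity IgG receptor CD16, was at 13.5 and 10.8 CPM in number 3 against 0 to 0.082 CPM in the others. CD163, the haemoglobin scavenger receptor, was at 45.5 and 40.6 CPM in number 3 against 0.305 to 1.17 CPM in the others, and CD209, a C-type lectin, at 103 and 125 CPM in number 3 against 2.17 to 6.65 CPM in the others. CSF1R, the receptor for macrophage colony-stimulating factor, was at 67.6 and 69.7 CPM in number 3 against 5.21 to 12.3 CPM in the others. The groups did not overlap in any of these 4. Not all such genes followed. CD33, a myeloid antigen, stood at 87.9 and 97.2 CPM in number 3 against 85.9 to 115 CPM in the others, overlapping them. MRC1, the mannose receptor, had 0 counts in every library, and MSR1 had at most 4.

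**Figure D3:**
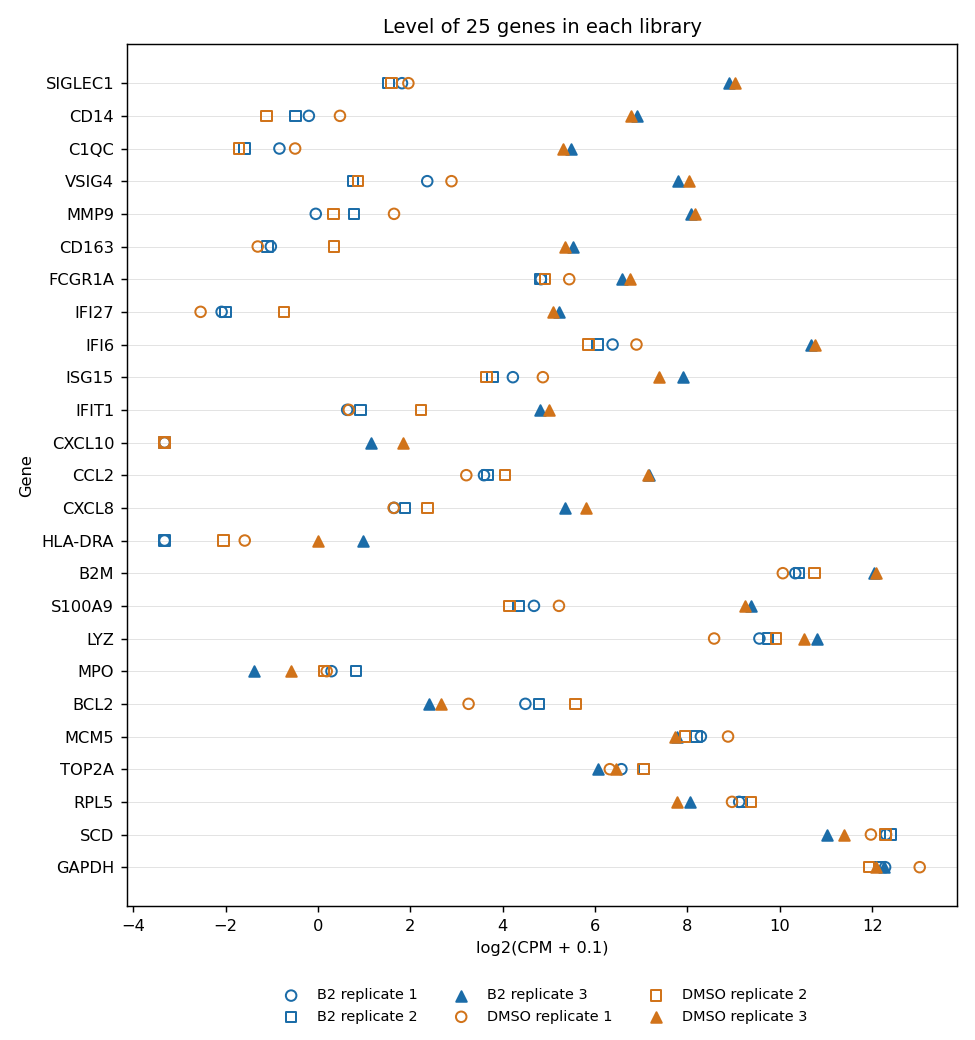
Level of 25 genes in each library on a log2(CPM + 0.1) axis; triangles are the libraries numbered 3, open circles number 1, open squares number 2, blue B2 and orange DMSO. For SIGLEC1, CD14, C1QC, VSIG4 and MMP9 the triangles lie far to the right of the other 4 points, whereas for GAPDH they lie among them and for BCL2 and RPL5 to the left.

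Antibody receptors and their signalling partners were higher as a group, with 10 of 16 Fc and leukocyte immunoglobulin-like receptor genes called and 14 above all other libraries. Of all genes 2.65% were called higher and 12.4% lay above. FCER1G, the common signalling chain, was at 404 and 328 CPM in number 3 against 94.6 to 104 CPM in the others. TYROBP, the DAP12 adaptor of many myeloid receptors, was at 258 and 212 CPM in number 3 against 22.1 to 55.7 CPM in the others. LILRB3, an inhibitory receptor, was at 21.4 and 26.1 CPM in number 3 against 1.84 to 2.33 CPM in the others, whereas the activating LILRA2 stood at 192 and 219.7 CPM in number 3 against 178 to 295 CPM in the others, with no separation. FCGR2B and FCGR2C are close copies with overlapping exons, so their separate values are uncertain. Among Siglecs, lectins that bind sialic acid, SIGLEC9 was at 17.7 and 21.2 CPM in number 3 against 5.77 to 6.64 CPM in the others. It and SIGLEC11 were the 2 of 8 called, and 7 of 8 lay above the other 4.

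Complement components and their receptors were both represented. Of 17 measured, 9 were higher. C1QA, a chain of the C1q initiator, was at 53.2 and 43.6 CPM in number 3 against 0.862 to 2.38 CPM in the others. C1QC, one of the 5 genes that chose the pair and not among these 17, was at 44.7 and 39.6 CPM in number 3 against 0.206 to 0.61 CPM in the others. The partner chain C1QB had at most 7 counts in any library. C3, the central component, was at 515 and 627 CPM in number 3 and at 30.7, 20.1, 41.8 and 20.3 CPM in the rest (log2 difference 4.34, SE 0.351). Among receptors C5AR1, for the C5a fragment, was at 82.3 and 99.5 CPM in number 3 against 4.8 to 19.3 CPM in the others, and C3AR1 at 67.2 and 76.3 CPM in number 3 against 8.39 to 14.8 CPM in the others. CD55, which protects the cell's own surface, was at 68.1 and 67.5 CPM in number 3 against 18.8 to 31.8 CPM in the others, while the related CD46 stood at 77.6 and 111 CPM in number 3 against 46.5 to 113 CPM in the others and did not separate. Of 10 scavenger and lipid uptake receptors 3 were higher, CD36 among them at 107 and 177 CPM in number 3 against 9.8 to 16.1 CPM in the others.

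Interferon-stimulated genes were also far higher. Of 36 effectors measured, 20 were higher (2.65% of all genes were) and 33 lay above all other libraries (12.4% of all genes did), with a median log2 difference of 2.15. IFI27, a mitochondrial protein used as an interferon marker, was at 37.4 and 33.9 CPM in number 3 and at 0.136, 0.15, 0.0717 and 0.502 CPM in the rest (log2 difference 7.43, SE 0.672). IFI6, which protects against endoplasmic reticulum stress and flavivirus replication, was at 1625 and 1728 CPM in number 3 and at 83.1, 66.5, 119 and 57.7 CPM in the rest (log2 difference 4.37, SE 0.331). For neither gene did the groups overlap. The oligoadenylate synthetases, which activate RNase L, were higher together: OAS1, OAS2, OAS3 and OASL differed by 3.55, 5.40, 3.12 and 2.81 on the log2 scale. ISG15, a ubiquitin-like modifier, was at 238 and 168 CPM in number 3 against 12.4 to 29.1 CPM in the others, and its protease USP18 at 34.2 and 37.1 CPM in number 3 against 13.1 to 16.1 CPM in the others. MX2 stood at 172 and 209 CPM in number 3 against 97.2 to 145 CPM in the others, above the others in both but by less than 2-fold, and ADAR at 565 and 564 CPM in number 3 against 186 to 439.5 CPM in the others. CXCL10, the chemokine of the interferon-gamma response, had 0 counts in the other 4 and 2.13 and 3.46 CPM in number 3, which is at least 261-fold higher when 3 counts over those 4 libraries are taken as the limit. IDO1, another gene of that response, had at most 10 counts and CXCL9 at most 4.

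Promoter stretches of 5 of these genes and of CD163 are shown because they hold the ISRE core, GAAANNGAA on either strand. Each is the 250 bases before the start in the RefSeq promoter table (GRCh38.p14), 5′ to 3′ on the gene's strand, with matches in capitals.
IFI6, chr1:27672193-27672442, minus strand: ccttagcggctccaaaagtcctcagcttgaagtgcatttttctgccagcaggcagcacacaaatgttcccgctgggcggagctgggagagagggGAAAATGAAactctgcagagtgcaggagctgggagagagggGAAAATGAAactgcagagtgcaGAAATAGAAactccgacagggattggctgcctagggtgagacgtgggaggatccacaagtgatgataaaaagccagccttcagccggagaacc
ISG15, chr1:1013247-1013496, plus strand: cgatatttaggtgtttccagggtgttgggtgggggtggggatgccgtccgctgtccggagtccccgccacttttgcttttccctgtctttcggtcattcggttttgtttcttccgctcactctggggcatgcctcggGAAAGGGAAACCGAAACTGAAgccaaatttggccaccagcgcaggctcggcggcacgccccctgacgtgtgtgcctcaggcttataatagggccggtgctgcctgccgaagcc
IFI27, chr14:94110486-94110735, plus strand: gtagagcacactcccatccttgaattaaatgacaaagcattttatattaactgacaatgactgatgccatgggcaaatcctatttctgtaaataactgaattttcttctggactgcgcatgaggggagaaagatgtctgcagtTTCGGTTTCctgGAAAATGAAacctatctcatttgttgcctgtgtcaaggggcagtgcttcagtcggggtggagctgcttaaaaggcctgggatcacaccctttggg
CXCL10, chr4:76023498-76023747, minus strand: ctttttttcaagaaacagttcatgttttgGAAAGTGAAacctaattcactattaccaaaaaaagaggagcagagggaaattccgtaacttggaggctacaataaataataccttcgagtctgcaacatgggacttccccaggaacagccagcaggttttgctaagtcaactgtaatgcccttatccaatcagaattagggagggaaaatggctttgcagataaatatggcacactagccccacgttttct
B2M, chr15:44711267-44711516, plus strand: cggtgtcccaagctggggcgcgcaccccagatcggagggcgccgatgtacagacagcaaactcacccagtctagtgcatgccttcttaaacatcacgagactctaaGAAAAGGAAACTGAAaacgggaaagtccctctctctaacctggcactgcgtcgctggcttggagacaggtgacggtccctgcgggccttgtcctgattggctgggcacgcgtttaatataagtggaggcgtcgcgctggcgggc
CD163, chr12:7503778-7504027, minus strand: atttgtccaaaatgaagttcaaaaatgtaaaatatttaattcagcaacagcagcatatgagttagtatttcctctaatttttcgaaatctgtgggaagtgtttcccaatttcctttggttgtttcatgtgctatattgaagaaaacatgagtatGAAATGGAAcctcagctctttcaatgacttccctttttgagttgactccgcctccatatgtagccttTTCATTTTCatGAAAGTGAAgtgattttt
IFI6, ISG15 and CD163 hold 3 matches each, IFI27 and B2M hold 2 and CXCL10 holds 1, and those of ISG15 and B2M run into each other. The match nearest the start ends 84 bases before it in IFI6, 9 bases before it in CD163 and 212 bases before it in CXCL10.

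The table held 300-base windows, 250 bases before to 50 after a start, for 11918 of the 18394 genes by symbol, among them 292 higher genes with 403 windows and 46 lower genes with 64. The ISRE core occurred in 71 of the 403 windows of higher genes (17.6%), in 6.78% of the windows of all genes kept, in 8.11% of the 35116 windows in the table and in 2 of the 64 of lower genes (3.12%). Of 29 interferon-stimulated effectors with a window, 23 held it, and of the 17 called among them 14 did. Most of the effectors thus held it, called or not, so a match did not set the called ones apart. In several other lists, too, a match did not follow being higher. Of 15 MHC class I genes 11 held the core, but only 1 of the 3 called. Of 18 cytokine and inflammasome genes 8 held it, but none of the 4 called. Of 46 cytosolic ribosomal protein genes, none of them higher, 9 held it. In the phagocyte oxidase list 2 of 3 held the core, both of them called. Of the 65 higher genes that held it, FCGR3A, CD209, FCGR2B, CYBB and NCF1 belong to receptor and oxidase lists, not to the effectors. The core bound by PU.1, the master factor of myeloid cells (AGGAAGT), occurred in 16.4% of the windows of higher genes against 8.45% of those kept. The AP-1 site TGANTCA occurred in 12.4% against 5.42%, the STAT site known as GAS (TTCNNNGAA) in 11.2% against 6.23%, and the first 9 letters of an NF-kB site (GGGNNTTNC) in 18.1% against 17.8%. In all windows of the table these 4 motifs occurred in 8.24%, 7.71%, 7.66% and 16.2%. All were searched on both strands. Matches shared bases in the windows of higher genes of ISRE and GAS in 4, of GAS and AP-1, PU.1 or NF-kB in 2 each, and of NF-kB and ISRE or PU.1 in 1 each. The motifs were chosen after the gene values were seen. The ISRE and NF-kB forms were each shortened by 1 letter after a form of 10 letters had been searched and its shares seen, and the shares depend on that length. A match is a description of letters, not of binding.

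**Figure D4:**
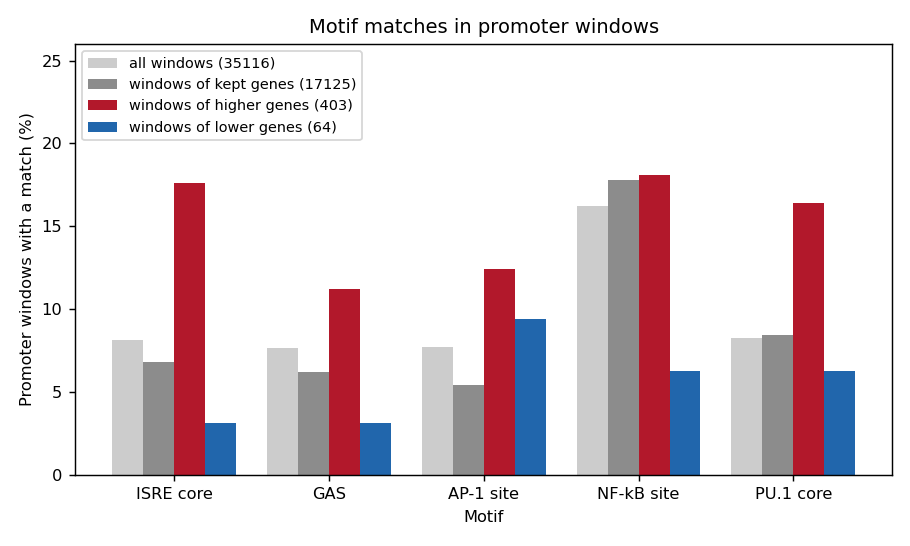
Percentage of promoter windows with at least 1 match to each of 5 motifs, for all 35116 windows, the 17125 of genes kept, the 403 of higher genes and the 64 of lower genes. The ISRE core stands at 17.6% for higher genes, 6.78% for genes kept and 3.12% for lower genes.

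The apparatus that senses nucleic acid and relays interferon was higher in parts. The cytoplasmic RNA helicases RIGI and IFIH1 and their regulator DHX58 were the 3 called of 8 sensors. IFIH1, known as MDA5, was at 32.5 and 38.4 CPM in number 3 against 6.01 to 15.5 CPM in the others, while the adaptor MAVS stood at 277 and 317 CPM in number 3 against 308 to 371 CPM in the others and STING1 at 217 and 225 CPM in number 3 against 161 to 295 CPM in the others, both without separation. Of 23 signalling factors 3 were called. IRF7, which amplifies the type I response, was at 99.6 and 88.9 CPM in number 3 and at 10.3, 9.07, 15.3 and 9.13 CPM in the rest (log2 difference 3.12, SE 0.315), and IRF9, the DNA-binding subunit of the ISRE complex, at 51.1 and 82.1 CPM in number 3 against 5.84 to 8.36 CPM in the others. The receptors and kinases upstream did not show this: IFNAR1 stood at 33.2 and 27.2 CPM in number 3 against 11.2 to 51.9 CPM in the others and JAK1 at 89.4 and 79.5 CPM in number 3 against 40.2 to 188 CPM in the others.

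Antigen presentation genes showed the class I chains ahead of the processing enzymes. Of the classical chains HLA-B was at 3347 and 3927 CPM in number 3 against 674 to 1244 CPM in the others, and HLA-C differed by 1.67 (log2), though reads of these near copies can be exchanged. B2M, the light chain they share, was at 4199 and 4353 CPM in number 3 and at 1291, 1363, 1071 and 1728 CPM in the rest (log2 difference 1.65, SE 0.255). Of 19 measured genes 4 were called, these 3 among them, and 11 lay above all others, against 2.65% and 12.4% of all genes. TAP1, the peptide transporter, was at 206 and 214 CPM in number 3 against 77.7 to 143 CPM in the others, and the immunoproteasome subunit PSMB8 at 286 and 268 CPM in number 3 against 162 to 316 CPM in the others, with no separation. In class II 4 of 9 measured genes were higher, including IFI30, the lysosomal thiol reductase, at 1233 and 1116 CPM in number 3 against 105 to 235 CPM in the others, and HLA-DRB1 at 44.8 and 42.9 CPM in number 3 against 2.91 to 7.53 CPM in the others. HLA-DRA was called as well, with few counts, at 1.88 and 0.903 CPM in number 3 against 0 to 0.233 CPM in the others (log2 difference 5.18). The DP and DQ chains HLA-DPA1, HLA-DPB1, HLA-DQA1 and HLA-DQB1 had at most 16 counts.

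Chemokines had a median difference of 3.60 on the log2 scale, with 11 of 14 measured genes higher, out of 22 listed. The filter took number 3 as a group, so CCL8 and CCL13 passed only through the libraries where they were high. With a filter needing 3 libraries the median was 2.96. CCL2, which draws monocytes, was at 144 and 141 CPM in number 3 and at 12, 12.7, 9.16 and 16.4 CPM in the rest (log2 difference 3.51, SE 0.302). CXCL8, which draws neutrophils, was at 40.4 and 55.5 CPM in number 3 against 3.01 to 5.08 CPM in the others. CCL8 had no counts in the other 4 and 2.52 and 2.46 CPM in number 3, at least 233-fold higher by the same limit. CCL5, by contrast, stood at 171 and 192 CPM in number 3 against 83.5 to 175 CPM in the others, overlapping. Of 22 cytokine and inflammasome genes 4 were higher and most called members were scarce. IL1B was at 12.1 and 13.3 CPM in number 3 against 4 to 5.43 CPM in the others and IL10 at 0.692 and 1.04 CPM in number 3 against 0 to 0.176 CPM in the others, whereas NLRP3 stood at 97.9 and 123 CPM in number 3 against 69.6 to 92.1 CPM in the others, above by less than 2-fold, and IL18 at 26.7 and 15.9 CPM in number 3 against 11.8 to 32.7 CPM in the others.

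Of 19 NF-kB subunits and feedback genes measured, 7 were higher. ICAM1, the adhesion ligand, was at 375 and 444 CPM in number 3 against 86 to 143 CPM in the others, TNFAIP3, the A20 inhibitor, at 57.3 and 59.9 CPM in number 3 against 9.4 to 25.6 CPM in the others, and RELB, a subunit, at 45.6 and 45.9 CPM in number 3 against 8.48 to 18.1 CPM in the others. The other subunits RELA and NFKB1 stood at 57.4 to 107 CPM and 50.5 to 82.9 CPM in the other 4 and at 86.6 and 90.9 CPM and 60.5 and 73.5 CPM in number 3, without separation. Among 17 Toll-like receptor genes 4 were called. TLR8, an endosomal RNA receptor, was at 11.2 and 15.4 CPM in number 3 against 0.412 to 1.29 CPM in the others, while TLR4, the lipopolysaccharide receptor, stood at 40.7 and 47.1 CPM in number 3 against 22.5 to 56.7 CPM in the others. Of 13 checkpoint and costimulatory ligands 5 were higher, including VSIR, the inhibitory ligand VISTA, at 883 and 854 CPM in number 3 against 201 to 402 CPM in the others, and SLAMF8 at 26.4 and 29.6 CPM in number 3 against 0.0949 to 0.412 CPM in the others.

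Effector genes of phagocytes followed. S100A9, the calprotectin subunit named in the title of the study, was at 669 and 604 CPM in number 3 and at 25.5, 20.2, 37.1 and 17.6 CPM in the rest (log2 difference 4.67, SE 0.35), and its partner S100A8 at 50.1 and 34.1 CPM in number 3 against 0.915 to 1.05 CPM in the others. The 2 libraries numbered 3 alone held the high values under either treatment. S100A4 stood at 867 and 682 CPM in number 3 against 448 to 1131 CPM in the others and S100A6 at 605 and 463 CPM in number 3 against 268 to 608 CPM in the others, both overlapping. Of the 10 measured S100 genes 4 were called and all 10 differences were above 0, with a median of 0.511. This median was 0.184 without B2 replicate 3, 0.813 without DMSO replicate 1 and 0.819 without DMSO replicate 3. In the phagocyte oxidase NCF1, a cytosolic subunit with near-identical pseudogenes, was at 335 and 301 CPM in number 3 against 23 to 39 CPM in the others and the membrane subunit CYBB at 382 and 357 CPM in number 3 against 35.9 to 171 CPM in the others. The small GTPase RAC1 stood at 199.9 and 171 CPM in number 3 against 155 to 226 CPM in the others. FTH1, the heavy chain of ferritin, was at 3678 and 3507 CPM in number 3 and at 418, 316, 584 and 275 CPM in the rest (log2 difference 3.18, SE 0.333), and TFRC, the transferrin receptor that imports iron, at 63.2 and 56.8 CPM in number 3 against 101 to 349 CPM in the others, below all of the others.

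Lysosomal and matrix enzymes included some of the largest values. Of 27 lysosomal genes 6 (22.2%) were higher and 18 (66.7%) lay above all others, against 2.65% and 12.4% of all genes. CTSB, a cysteine protease, was at 2685 and 2975 CPM in number 3 against 671 to 1262 CPM in the others, CHI3L1, a chitinase-like protein, at 1136 and 1339 CPM in number 3 against 137 to 219 CPM in the others, and ADAMDEC1 at 21.3 and 29.9 CPM in number 3 against 0 to 0.27 CPM in the others. LAMP1, a membrane protein of lysosomes, stood at 726 and 825 CPM in number 3 against 474 to 768 CPM in the others, overlapping the others. Of 22 matrix genes 11 were higher, with a median log2 difference of 1.47 that was 0.977 with a filter needing 3 libraries. MMP1, the interstitial collagenase, was at 597 and 402 CPM in number 3 against 4.5 to 7.3 CPM in the others, SPP1, or osteopontin, at 59.5 and 89.5 CPM in number 3 against 0.579 to 1.47 CPM in the others, and PLAUR, the urokinase receptor, at 325 and 372 CPM in number 3 against 56.5 to 82.3 CPM in the others. MMP12, the macrophage elastase, had no counts in the other 4 and was at least 127-fold higher. FN1 stood at 40.8 and 31.4 CPM in number 3 against 30.02 to 32.9 CPM in the others, with no separation. TDO2, which opens the kynurenine pathway of tryptophan, was at 215 and 329.7 CPM in number 3 and at 1.12, 0.684, 1.65 and 1.54 CPM in the rest (log2 difference 7.79, SE 0.321), the largest difference in that list, where 3 of 8 were called.

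Transcription factors differed little by comparison. Of 23 myeloid factors 2 (8.7%) were called higher, against 2.65% of all genes. BATF2, a factor induced by interferon, was at 14.3 and 15.8 CPM in number 3 against 3.13 to 5.51 CPM in the others. SPI1, the gene of PU.1, was at 425 and 420.0 CPM in number 3 against 198 to 389 CPM in the others, above the others but within 2-fold, and CEBPA stood at 525 and 497 CPM in number 3 against 385 to 772 CPM in the others. GFI1, a repressor of early myeloid cells, stood at 247 and 296 CPM in number 3 against 374 to 398 CPM in the others, below all of the others. Among immediate early genes EGR2 was at 3.05 and 4.77 CPM in number 3 against 0.798 to 1.11 CPM in the others and EGR1 at 5.88 and 14.8 CPM in number 3 against 17.3 to 36.3 CPM in the others, opposite in direction. None of 22 progenitor and leukemia regulators was called, and their median was 0.0185, with a range of -0.339 to 0.175 over the alternatives. HOXA9 stood at 83.7 and 82.3 CPM in number 3 against 43.1 to 101 CPM in the others and MYB at 97.9 and 82.2 CPM in number 3 against 75.5 to 278 CPM in the others.

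Granule enzymes of early myeloid cells were not carried along. CTSG stood at 2018 and 2125 CPM in number 3 against 1239 to 2367 CPM in the others and ELANE at 660.2 and 625 CPM in number 3 against 658 to 1308 CPM in the others, while MS4A3, a surface protein of granulocyte and monocyte progenitors, was lower at 13.9 and 14.3 CPM in number 3 and at 34.8, 47.4, 43.2 and 66.5 CPM in the rest (log2 difference -1.75, SE 0.349). Of 12 in the list 5 (41.7%) lay below all others and 1 (8.33%) above, against 11.8% and 12.4% of all genes. The 1 above was CEACAM8, which is also counted in the neutrophil list below. The median of these 12 was -0.344. Without DMSO replicate 1 the median was -0.116, and without DMSO replicate 3 it was -0.0968. MPO stood at 0.28 and 0.568 CPM in number 3 against 0.991 to 1.67 CPM in the others, low in every library.

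Many genes of growth lay below the others in number 3 without passing the 2-fold rule. Of 40 DNA replication genes none was called, yet 25 (62.5%) lay below all other libraries in both, against 11.8% of all genes, with a median of -0.766. MCM3, part of the replicative helicase, stood at 236 and 308 CPM in number 3 and at 489.9, 487, 383 and 429 CPM in the rest (log2 difference -0.71, SE 0.265). TYMS, thymidylate synthase, stood at 97.2 and 115 CPM in number 3 against 183 to 223 CPM in the others, and ORC1, of the origin complex, at 57.3 and 66.6 CPM in number 3 against 102 to 132 CPM in the others. PCNA stood at 211 and 203 CPM in number 3 against 212 to 449 CPM in the others, just under the lowest of the others. Among 34 mitotic genes 15 (44.1%) lay below and none above, with a median of -0.664 that was -0.328 without both libraries numbered 2. CCNB1, the mitotic cyclin, stood at 80.1 and 72.6 CPM in number 3 against 102 to 164 CPM in the others. MKI67, the Ki-67 antigen, did not separate, at 72.4 and 56.9 CPM in number 3 against 45.8 to 211 CPM in the others, with DMSO replicate 1 the lowest of the 6. BTG2, an antiproliferative gene, was the 1 of 17 cell cycle inhibitors called (5.88%, against 2.65% of all genes). It was at 57.6 and 72.4 CPM in number 3 against 17.5 to 24.3 CPM in the others. CDKN1A was at 137 and 136 CPM in number 3 against 58 to 111 CPM in the others.

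Many translation and lipid synthesis genes also lay below the others. Of 57 cytosolic ribosomal protein genes 35 (61.4%) lay below all others, with a median of -0.556. RPL5 stood at 265 and 217 CPM in number 3 and at 556, 581, 499.6 and 666 CPM in the rest (log2 difference -1.26, SE 0.264) and RPLP0 at 1331 and 1238 CPM in number 3 against 1947 to 4252 CPM in the others. This list was highest in DMSO replicate 1, and its median was -0.267 without both libraries numbered 1 and -0.793 without B2 replicate 3. Of 35 ribosome biogenesis genes 19 lay below (median -0.577). FBL, the fibrillarin methyltransferase, stood at 176 and 166 CPM in number 3 against 282 to 574 CPM in the others, and ODC1, the polyamine enzyme, at 102 and 116 CPM in number 3 against 187 to 244 CPM in the others. Of 28 cholesterol and fatty acid genes 15 lay below (median -0.605). SCD, the stearoyl-CoA desaturase, stood at 2068 and 2675 CPM in number 3 and at 5042, 5410, 4017 and 4997 CPM in the rest (log2 difference -1.03, SE 0.262), and INSIG1, the sterol-responsive retention factor, at 409.5 and 397 CPM in number 3 against 647 to 1391 CPM in the others. No gene of these 3 lists was called either way or lay above all others.

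**Figure D5:**
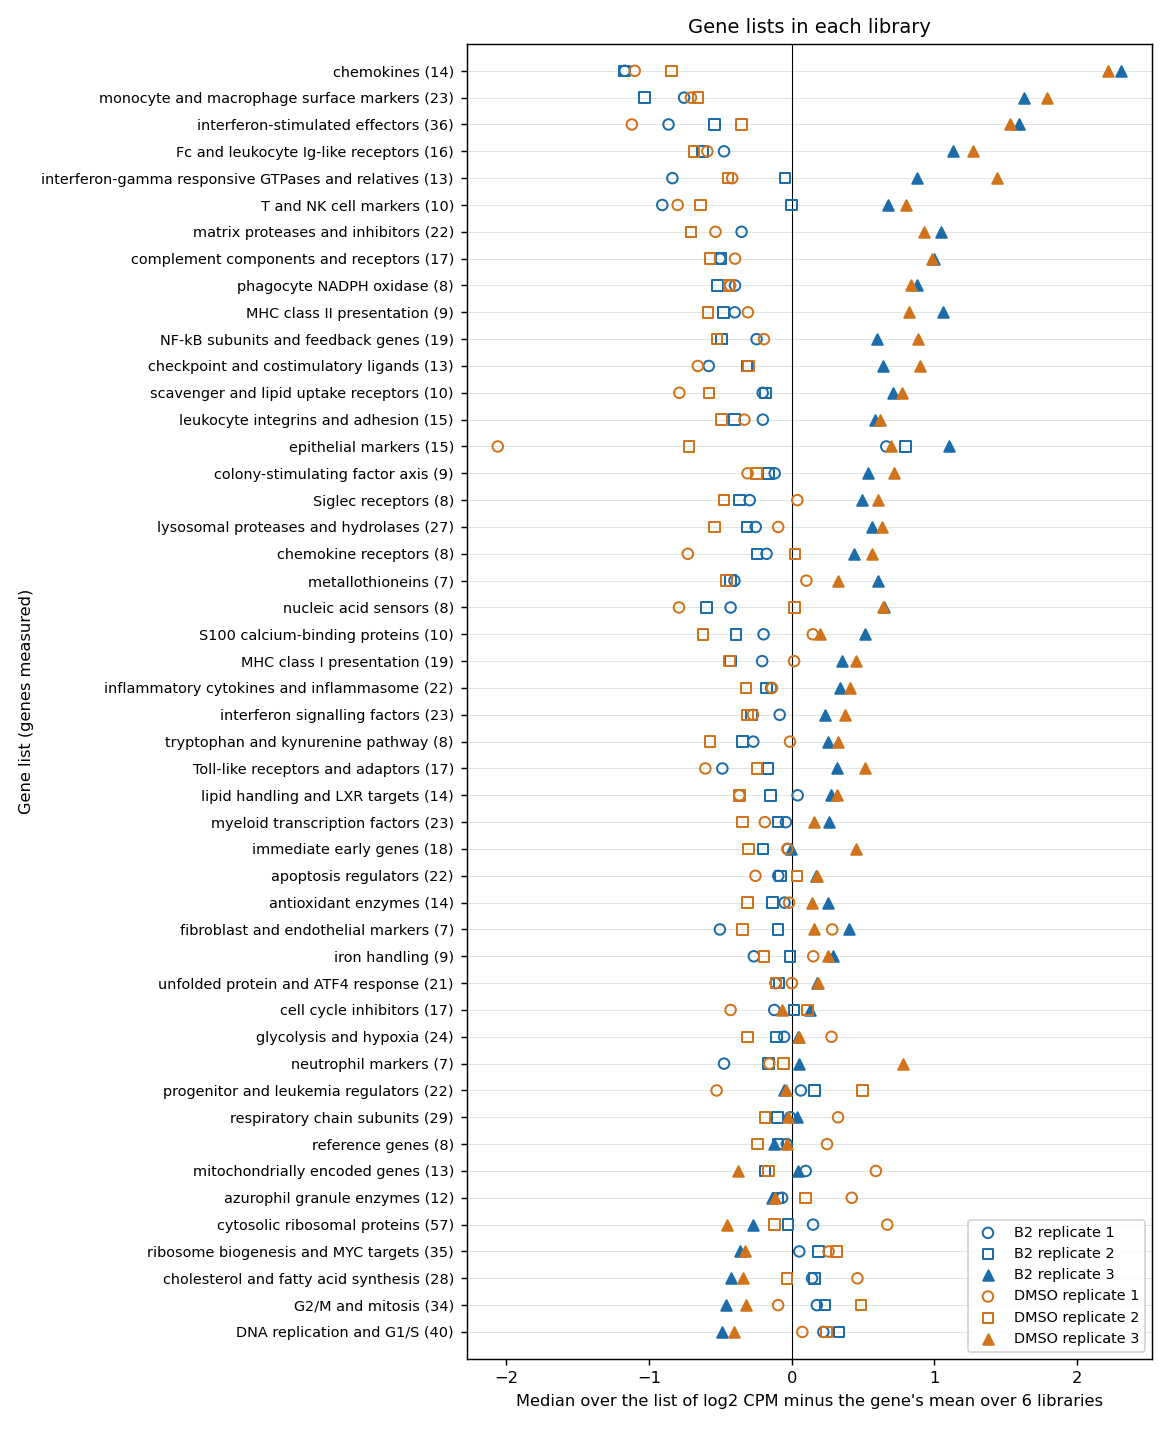
Each row is a gene list (genes measured in parentheses) and each point a library: the median over the list of log2 CPM minus the gene's mean over the 6 libraries. Triangles (number 3) lie to the right for chemokines, surface markers and interferon effectors, near the others for respiratory chain and reference genes, and to the left for DNA replication, mitosis and ribosome lists; open orange circles show DMSO replicate 1 apart in epithelial and ribosomal lists.

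Energy metabolism did not follow either pattern. The 29 respiratory chain genes had a median of -0.0193 (range over the alternatives -0.187 to 0.24), with none called, and the 24 glycolysis and hypoxia genes a median of 0.0464 (range -0.109 to 0.261). Of the 2 called there, HK3, a hexokinase of myeloid cells, was at 274 and 271 CPM in number 3 against 55.5 to 109 CPM in the others, and ADM, adrenomedullin, at 5.92 and 7.79 CPM in number 3 against 0.312 to 0.669 CPM in the others. GAPDH stood at 4899 and 4359 CPM in number 3 against 3905 to 8355 CPM in the others and ACTB at 7184 and 8820 CPM in number 3 against 6585 to 11310 CPM in the others, inside the range of the others. Of 22 apoptosis regulators none was called, but BCL2, which holds off cell death, stood at 5.22 and 6.26 CPM in number 3 and at 22.4, 27.5, 9.49 and 47.6 CPM in the rest (log2 difference -2.22, SE 0.643). Its lowest value outside number 3 was in DMSO replicate 1. BCL2A1 and BIRC3, which are not in this list of regulators, were called higher, with log2 differences of 1.92 and 2.5.

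Markers of other cell types were looked at as whole lists, against 2.65% of all genes called higher. Of 7 measured neutrophil genes 2 were higher, CEACAM8 at 7.29 and 7.38 CPM in number 3 against 0.312 to 1.24 CPM in the others and MMP8, and the summed level of the list was 344.4 and 356.7 CPM in number 3 and 287.5 to 419.7 CPM in the others. Of 5 dendritic cell genes XCR1 was called, at 0.198 and 0.232 CPM in number 3 and 0 counts in the others. It passed the filter only through the libraries where it was high, so its call supports nothing. The summed levels of the dendritic cell list were 6.15 and 7.62 CPM against 5.13 to 7.85 CPM. In the T and NK cell list 2 of 10 were higher, IL7R at 3.35 and 2.7 CPM in number 3 against 0.116 to 0.251 CPM in the others and CD2 at 3.38 and 4.58 CPM in number 3 against 0.203 to 0.738 CPM in the others. Its sum was 1120 and 1154 CPM against 501.1 to 975.8 CPM, mostly CD4 and NKG7, which U937 cells expressed in every library. CD3D, CD3E and CD3G had 0 counts throughout, as did the B cell gene MS4A1, whose list of 6 had no gene called. In the erythroid and megakaryocyte list 1 of 5 was higher, PPBP, a platelet chemokine, at 16.2 and 12.4 CPM in number 3 against 0.15 to 0.434 CPM in the others, and the sums were 39.9 and 39.7 CPM against 21.9 to 34.9 CPM. In the mast cell list none of 4 was called, with sums of 255.7 and 231.8 CPM against 142.7 to 338.8 CPM. In the epithelial list none of 15 was called and 3 lay above all others, with sums of 81.9 and 57.2 CPM in number 3, 61.5 and 61.2 CPM in B2 replicates 1 and 2, and 11.9 and 24.0 CPM in DMSO replicates 1 and 2. The median of the 15 epithelial differences was 2.16 in the DMSO arm and 0.403 in the B2 arm (log2). KRT8, a keratin, stood at 11.2 and 9.24 CPM in number 3 against 0.664 to 11 CPM in the others. In the fibroblast and endothelial list 1 of 7 was higher, with sums of 30.4 and 43.5 CPM against 14.1 to 18.7 CPM. Whether cells of another kind added to these values was not tested beyond these sums.

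The comparisons that the choice of libraries did not use were tested with edgeR's quasi-likelihood test over all 18394 genes. With number 3 as a term, B2 against DMSO gave no gene at an adjusted p below 0.05, and 157 genes (0.854%) had an unadjusted p below 0.05. The smallest adjusted p was 0.999. DESeq2 called 8 genes and limma-voom none. Among the 488 higher genes 5 had an unadjusted p below 0.05 for treatment. The interaction, which asks whether the number 3 difference depends on treatment, also gave none (269 genes, 1.46%, unadjusted, smallest adjusted p 1), with 14 by DESeq2 and none by limma-voom. With the replicate numbers as a block, edgeR called no gene for treatment. For the interaction with that block, a separate fit that leaves only 1 residual degree of freedom, it called 34 genes. The interaction rests on few libraries: leaving out 1 of the 4 outside number 3 called 12 to 1193 genes, the latter without DMSO replicate 2. On the log2 scale the median SE was 0.387 for a treatment difference and 0.912 for the interaction, and differences far above these sizes also went uncalled. For treatment, ERBB2 differed by 2.02 (SE 0.462) and ENSG00000273433 by -9.42 (SE 0.939), both at an edgeR adjusted p of 0.999. ENSG00000273433 stood at 0 CPM in every B2 library and at 0.968 to 1.46 CPM with DMSO, so zeros set the size of its difference. The interaction of FP565260.2 was 14.4 (SE 1.6) and was not called. Its size likewise rests on 0 CPM in B2 replicates 1 and 2. The exons of all these genes overlap another gene. The lack of calls therefore does not show that such differences were absent. None of the 488 was called in either edgeR test without the block.

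The other 4 libraries were also compared among themselves. Number 2 against number 1 called 7 genes, 3 up and 4 down in number 2 (0.0381% of all), while 3134 genes (17.0%) had an unadjusted p below 0.05. The strongest, BIVM-ERCC5, is a readthrough gene whose exons overlap its neighbour, at 0 CPM in both libraries numbered 2 and 5.30 and 6.47 CPM in those numbered 1 (edgeR adjusted p = 0.000567). SENP3-EIF4A1, also a readthrough, stood at 531 and 603 CPM in number 1, 88.3 and 24.8 CPM in number 2 and 10.9 and 8.09 CPM in number 3, so its place among the lower genes is uncertain. None of the 488 higher genes was called in this test and 1 of the 123 lower genes was. DESeq2 called 592 genes for the same comparison and limma-voom 9. Without B2 replicate 1 edgeR called 3965.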

How the data were processed

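The authors' single table, as deposited, holds an estimated count (expected count), not normalized, for 60612 Ensembl identifiers in each of the 6 libraries. HISAT2 2.0.4 is the aligner that the submitters' processing notes name. The read counter, its strand rule, the build and the annotation are not given in these sources. A value of 4 occurred 6465 times against 3144 for 3 and 2022 for 5, so small deposited counts are inexact. Positions come from GENCODE 29 (GRCh38).

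Genes were kept by filterByExpr (minimum count 10, minimum total 15) with number 3 and the rest as groups, so that a gene present in 2 libraries can pass. A filter needing 3 libraries would drop 1170 of the 18394, 100 of them higher and 35 lower. FCGR3A, CXCL10, CCL8, MMP12 and XCR1 are among those 100. Differences come from edgeR 4.0.16 under R 4.3.3 with treatment as a term. Each SE was derived as the absolute log2 difference divided by the square root of its quasi-likelihood F statistic. Log2 CPM for the 2-fold rule used a prior count of 2. Tests used glmQLFit and glmQLFTest, Benjamini-Hochberg adjustment and a threshold of 0.05, and were checked on simulated data.

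Members and the 53 gene lists were chosen with earlier results of these data known. The rule for named genes took the markers, the 25 largest differences each way and members of each list by size. Other genes in the text were chosen after their values were seen. Same-numbered libraries deviated from their group means with correlations of 0.186, 0.364 and 0.478 for numbers 1, 2 and 3. The last restates the split that chose the pair. Deviations within a group cancel, so a shared shift of number 3 raises the others too. These correlations therefore do not show that the numbers pair libraries. B2 replicate 1 correlated at 0.958 with DMSO replicate 1 and 0.962 with DMSO replicate 2, and B2 replicate 2 at 0.949 and 0.97. The replicate block assumes pairing, which the labels do not give. P-values reflect spread among these 6 libraries only, possibly technical. Some genes of the lists are not reported here by name.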

Additional observations from a re-analysis of the deposited data

How the results depend on the processing

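Of 4967 values of named genes recomputed under the alternatives, 249 moved by more than 1 SD and 105 took the other sign. None of the 105 was among the 2713 values of higher or lower genes. The 2-fold rule that chose those genes left their sign little room to turn, so this is no support for them. Of 1059 list medians 174 moved by more than 1 SD and 37 took the other sign. The higher count was 213 at 4-fold, 2276 with no minimum fold, 299 without overlapping genes, 910 without both libraries numbered 1, 741 without both numbered 2 and 536 to 735 with 1 library left out (735 without B2 replicate 3). The lower count was 49 at a minimum count of 50, 38 with counts divided by 4, 42 with a prior count of 10, 21 at 4-fold, 2173 with no minimum fold, 63 without overlapping genes, 57 with protein-coding genes only, 655 without both numbered 1 and 128 to 552 with 1 left out (321 without DMSO replicate 1, 468 without B2 replicate 3, 552 without DMSO replicate 3). The treatment test called 8 genes by DESeq2, 0 with the replicate block (238 unadjusted, smallest edgeR adjusted p 0.162), 3 with the block and the GC and length trend removed, and 0 to 1 with 1 library left out. The interaction test called 34 with the replicate block (chosen after seeing the data), 14 by DESeq2 and 12 to 1193 with 1 left out. Number 2 against 1 called 12 with RLE factors, 26 with upper-quartile factors, 1 with library totals, 12 with no filter, 13 at a minimum count of 50, 21 with counts divided by 4, 592 by DESeq2, 2 at an adjusted p of 0.01, 1 without overlapping genes and 3 to 3965 with 1 left out. The cause of these moves was not tested. Dropping overlapping genes, restricting to protein-coding genes, dropping a number and removing the GC trend were chosen after seeing the data. With 1 library left out an arm can hold few samples, which are assumed to vary like the others. Low counts limit most of the lower genes.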

Other observations

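Outside the gene lists 80 protein-coding genes of at least 1 CPM, free of exon overlap, were higher and 9 lower. SLCO2B1, an organic anion transporter, was at 17.1 and 24.4 CPM in number 3 against 0.0901 to 0.271 CPM in the others, CYP27A1, a sterol hydroxylase, at 8.65 and 10.1 CPM in number 3 against 0.154 to 0.646 CPM in the others, and GPR34, a lysophospholipid receptor, at 14.4 and 17.5 CPM in number 3 against 0.325 to 0.862 CPM in the others. FPR1, the receptor for formylated bacterial peptides, was at 11 and 11.8 CPM in number 3 against 0.901 to 1.4 CPM in the others, FUCA1, a lysosomal fucosidase, at 701 and 678 CPM in number 3 against 70.1 to 134 CPM in the others, and AOAH, which inactivates lipopolysaccharide, at 76.7 and 93.3 CPM in number 3 against 13.8 to 22.2 CPM in the others. DCSTAMP, a protein of macrophage fusion, was at 53 and 57.5 CPM in number 3 against 12.2 to 15.2 CPM in the others. On the lower side TRIM71, an RNA-binding ubiquitin ligase of early development, was at 0.231 and 0.671 CPM in number 3 against 1.56 to 12.6 CPM in the others, NTRK3, a neurotrophin receptor, at 1.12 and 1.21 CPM in number 3 against 3.25 to 6.19 CPM in the others, and ITM2C at 19.3 and 19.3 CPM in number 3 against 50.1 to 86.5 CPM in the others. These genes were chosen after their values were seen.

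Of 29 histone genes measured 6 were higher and none lower, against 2.65% and 0.669% of all genes, with a median log2 difference of 0.642. H2BC12 was at 18.5 and 18.7 CPM in number 3 against 3.76 to 5.98 CPM in the others and H2AC6 at 5.01 and 5.6 CPM in number 3 against 0.466 to 1.65 CPM in the others. Among long noncoding genes 57 of 2837 (2.01%) were higher and 45 (1.59%) lower. GAPLINC was at 3.76 and 2.71 CPM in number 3 against 0.393 to 0.664 CPM in the others and MIR9-3HG at 3.64 and 3.78 CPM in number 3 against 8.79 to 11.9 CPM in the others. By chromosome, the share of genes called higher ran from 1.23% on chromosome 18 to 4.24% on chromosome 11, and none of the 37 mitochondrial genes was called.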
